A study of Ambystoma mexicanum with 8 samples.

Results

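The cells described here are axolotl limb connective tissue cells that hold transcripts of RSPO1, PTH1R and MEOX2. They were taken from single-cell libraries of Ambystoma mexicanum limb cells with a doubled DNA content. A cell was a member if it had at least 500 detected genes and gave at least 2% of its unique molecular identifiers (UMIs, tags that count each captured RNA molecule once) to COL1A1, COL1A2, COL3A1, DCN, LUM, OGN and MFAP5. It also had to give less than 1% to the keratins KRT5, KRT12, KRT15 and KRT76, to hold fewer than 5 UMIs of the cartilage collagens COL2A1, COL11A1 and COL9A1, and to hold at least 3 UMIs of RSPO1, PTH1R and MEOX2 together. This rule found 7546 members among 34149 deposited cells. Of the deposited cells, 33860 had 500 genes, 14906 of those reached the connective tissue share, 14096 also passed the keratin limit and 10488 also passed the cartilage limit. These 10488 are called gated cells below. Members made up 71.9% of them (95% exact interval 71.1 to 72.8%). The 2942 gated cells with fewer than 3 UMIs of the genes are called the other gated cells.

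All animals were wild-type, and the tissue of every library was limb. Dissociated live cells were stained for DNA, and the fraction at 4 C, the DNA content of a diploid cell that has copied its genome, went into 10x Genomics 3' droplet libraries. There were 4 Intact libraries, taken as the homeostatic limbs, and 4 Contra libraries, taken as the systemically activated limbs of animals studied 14 days after an amputation. The labels do not spell out Contra, do not give the age of the animals and do not say whether a library is one animal, so p-values measure the spread between libraries, which may be technical. The question behind the groups, as far as the study is known, is the activation of cells at a distance from a wound and the part of adrenergic signals in it.

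RSPO1 encodes R-spondin 1, a secreted protein that binds LGR receptors and holds back the ubiquitin ligases RNF43 and ZNRF3, which otherwise remove WNT receptors from the cell surface. A cell near a source of R-spondin therefore responds more strongly to WNT ligands. PTH1R is the receptor for parathyroid hormone and for the local peptide PTHLH. In mammals it couples mainly to the stimulatory G protein and cyclic AMP, and it is known from bone and growth plate. MEOX2 is a homeobox factor that in mouse acts in limb muscle patterning and in mesenchyme, and ADGRA2 (GPR124) is an adhesion receptor that works with RECK as a WNT7 co-activator on the brain endothelium of mouse.

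Members made up between 62.0% (Contra 5) and 82.4% (Intact 1) of the gated cells of a library. This share depended on depth. With 3000 UMIs drawn from each gated cell that had as many, it ran from 45.8% in Contra 3 to 65.4% in Intact 1. Intact 1, 3, 4 and 5 gave 159, 1234, 237 and 130 members, and Contra 1, 2, 3 and 5 gave 1293, 1655, 2199 and 639. Members had a median of 14842 UMIs and 4219.5 genes, the other gated cells a median of 7975 UMIs. Since the rule asks for a number of UMIs, a shallow cell is less likely to be a member. The other gated cells were few in some libraries, with 34 in Intact 1 and 32 in Intact 5 against 1162 in Contra 3. Summed over members, the libraries held between 1223684 UMIs in Intact 5 and 35642315 in Contra 3. In all, 5 member barcode sequences occurred in more than 1 library. Doublets were in effect not removed: Scrublet called 104 cells of the series, 30 of them members, or 0.307% of all cells. The cells with the highest doublet scores held 491 members, and the share of members and the count of genes called between the groups were also taken without them.

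Members were chosen by the measured UMIs of RSPO1, PTH1R and MEOX2 and of the connective tissue, keratin and cartilage genes above, so the levels of these genes are a description. RSPO1 stood at 2289, 1885, 2186 and 2016 CPM (the usual depth-scaled unit, UMIs of a gene over all UMIs of those cells in the library) in members of Intact 1, 3, 4 and 5. In Contra 1, 2, 3 and 5 it stood at 1659, 1605, 1309 and 1515 CPM, so that every Contra library lay below every Intact library. The same held for 4.06% of all genes tested in members. PTH1R stood at 588 CPM ± 106 (SD, n = 8 libraries) and MEOX2 at 574 ± 79.1, and for both genes the groups overlapped. ADGRA2, which the rule did not use, stood at 578, 469.9, 616 and 557 CPM in the Intact and at 479, 568, 411 and 501 CPM in the Contra libraries, with overlapping groups. Its level in the other gated cells was 115 CPM ± 28.2 (SD, n = 8 libraries), lower than in members in all 8 libraries. Of 9122 genes averaging at least 10 CPM over both sets, 45.4% were higher in members in all 8 libraries. ADGRA2 was chosen as a marker with earlier results of these data known, so its level is a description too.

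**Figure D1:**
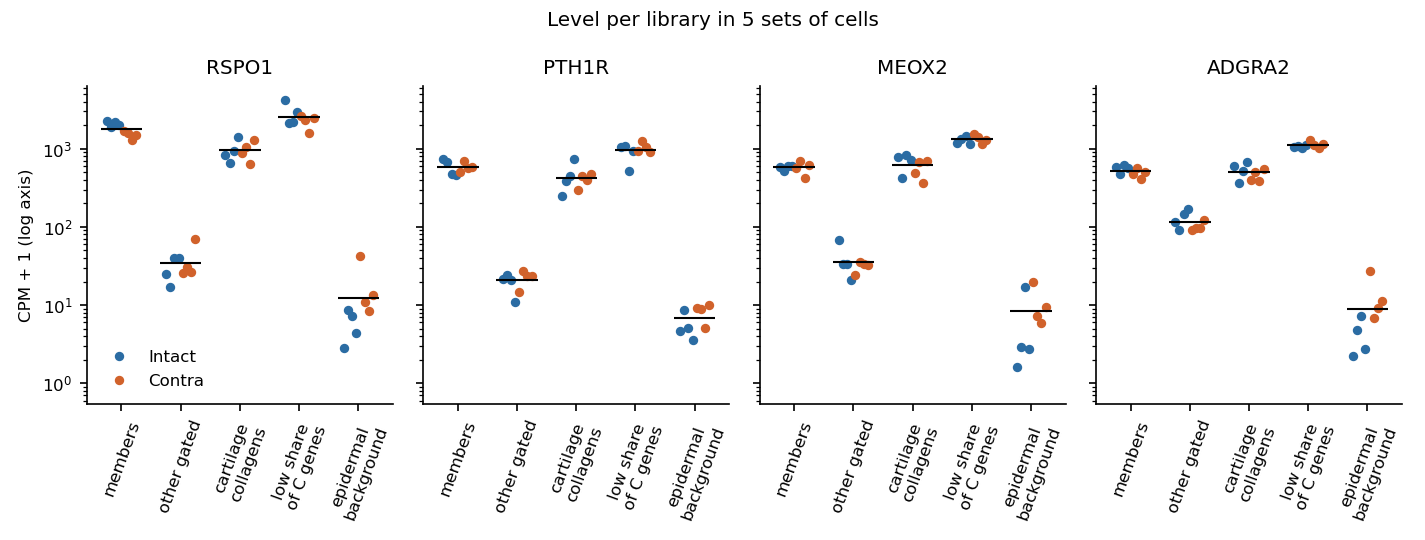
Level of RSPO1, PTH1R, MEOX2 and ADGRA2 per library (CPM + 1, log axis) in members, other gated cells, cells with cartilage collagens, cells with at least 3 UMIs of the genes of the rule and less than 2% of the connective tissue genes, and keratin-rich cells taken as background. Points are libraries and lines are means; ADGRA2 averages 523 CPM in members, 499 in cells with cartilage collagens and 7.98 in the background.

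The connective tissue class of the members was set by the rule, and the named genes were not particular to the members. Of 3608 connective tissue cells kept out for their cartilage collagens, 2879 (79.8%) also held 3 UMIs of RSPO1, PTH1R and MEOX2, and MEOX2 averaged 622 CPM there. Another 3802 cells passed the keratin limit and held 3 UMIs of the genes but gave less than 2% of their UMIs to the connective tissue genes. They had a median of 8400 UMIs, and RSPO1 averaged 2543 CPM, MEOX2 1311 CPM and ADGRA2 1105 CPM in them. The background of free RNA was read from 1834 keratin-rich cells with a median of 4347 UMIs. There, RSPO1 gave a UMI in 5.73% of cells, PTH1R in 4.25% and MEOX2 in 3.65%. The shares of members, 81.5%, 81.1% and 77.9%, were set in part by the rule, and members had a median of 14842 UMIs. They are therefore no test against this background.

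The limit of 3 UMIs cut through a continuum. ADGRA2 stood at 156 CPM in the 562 gated cells with 2 UMIs of the genes and at 199 CPM in the 487 with 3 UMIs. In the 4979 members with 12 or more UMIs it stood at 561 CPM, and 93.5% of those cells held an ADGRA2 UMI. PRRX1, a homeobox gene of limb mesenchyme, ran from 181 CPM at 2 UMIs and 218 CPM at 3 UMIs to 502 CPM at 12 or more. Median depth was higher along the same steps, from 8911.5 UMIs at 2 and 9910 at 3 to 17008 at 12 or more. The part of depth in these steps was not tested. At the limit of the connective tissue share, RSPO1 stood at 2850 CPM in 257 cells just inside (2 to 2.5%) and at 2242 CPM in 308 cells just outside (1.5 to 2%). Around the keratin limit it was 745 CPM in 67 cells just inside and 590.5 CPM in 51 just outside, and around the cartilage limit 1229.6 CPM in 695 cells with 4 UMIs and 1124 CPM in 512 cells with 5.

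The genes of the rule overlapped within cells without moving as a block. All 3 were seen in 52.9% of members, 2 in 34.8% and 1 in 12.3%. Ranked by UMIs within each cell, RSPO1 led in 4090 members (54.2%), MEOX2 in 2005 (26.6%) and PTH1R in 1173 (15.5%), while 278 (3.68%) were tied. Every library held all 3 kinds. RSPO1-leading cells ranged from 50.6% of members in Contra 2 to 60.4% in Intact 1, PTH1R-leading cells from 9.70% in Intact 4 to 19.5% in Contra 3, and MEOX2-leading cells from 23.1% in Intact 5 to 28.9% in Contra 2.

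The kinds differed in transcription factors and matrix genes that the rule did not name. The kinds were cut from the same cells, so these are descriptions over the 8 libraries. ALX1, a homeobox gene known from craniofacial and limb mesenchyme, averaged 83.1 CPM ± 30.4 (SD, n = 8 libraries) in RSPO1-leading members against 5.39 ± 5.56 in PTH1R-leading and 4.71 ± 3.25 in MEOX2-leading ones. TWIST2, a basic helix-loop-helix factor of dermal and limb mesenchyme, showed the same order at one identifier, with 133, 51.0 and 27.9 CPM, and the reverse order at a second identifier, with 49.5, 90.2 and 107 CPM. The counting may split reads between such copies. CLU (clusterin, a secreted chaperone) stood at 659.5, 217 and 176 CPM and PTX3 (pentraxin 3, a secreted pattern recognition protein) at 4872, 2841 and 878 CPM in RSPO1-, PTH1R- and MEOX2-leading members. Leaving out the genes of the rule, 218 of 2845 genes (7.66%) of at least 50 CPM in RSPO1-leading members were highest there in every library. For MEOX2-leading members it was 75 of 3321 (2.26%) and for PTH1R-leading ones 40 of 3364 (1.19%). PTH1R-leading members numbered only 22, 23 and 17 in Intact 1, 4 and 5. MEOX2-leading ones numbered 37, 67 and 30 there and RSPO1-leading ones 96, 142 and 76. The part of cell number in these counts was not tested.

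MEOX2-leading members carried more COCH (cochlin, a secreted protein with von Willebrand domains), at 198 CPM ± 67.2 against 24.7 ± 12.4 in RSPO1-leading and 44.5 ± 35.9 in PTH1R-leading members (SD, n = 8 libraries). TBX5, the forelimb T-box factor, stood at 353 CPM in them against 176 and 160.3 CPM. The hyaluronan and proteoglycan link gene HAPLN3, the collagen gene COL6A5 and the laminin gene LAMB2 were also highest in MEOX2-leading members. RSPO2, another R-spondin, went the other way from RSPO1: it averaged 48.3 CPM in MEOX2-leading and 8.18 CPM in RSPO1-leading members and was lower in the RSPO1-leading cells of all 8 libraries. PTH1R-leading members carried the most BACH2, a transcriptional repressor, at 93.1 CPM against 30.3 and 41.3 CPM. They also carried the most PITX1, a homeobox factor known from the hindlimb, at 75.2 CPM ± 18.1 against 41.3 ± 7.84 in RSPO1-leading and 47.3 ± 6.35 in MEOX2-leading members. PDGFRA, the platelet-derived growth factor receptor of mesenchyme, was lowest in RSPO1-leading cells, at 178 CPM against 255 and 240.2 CPM.

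**Figure D2:**
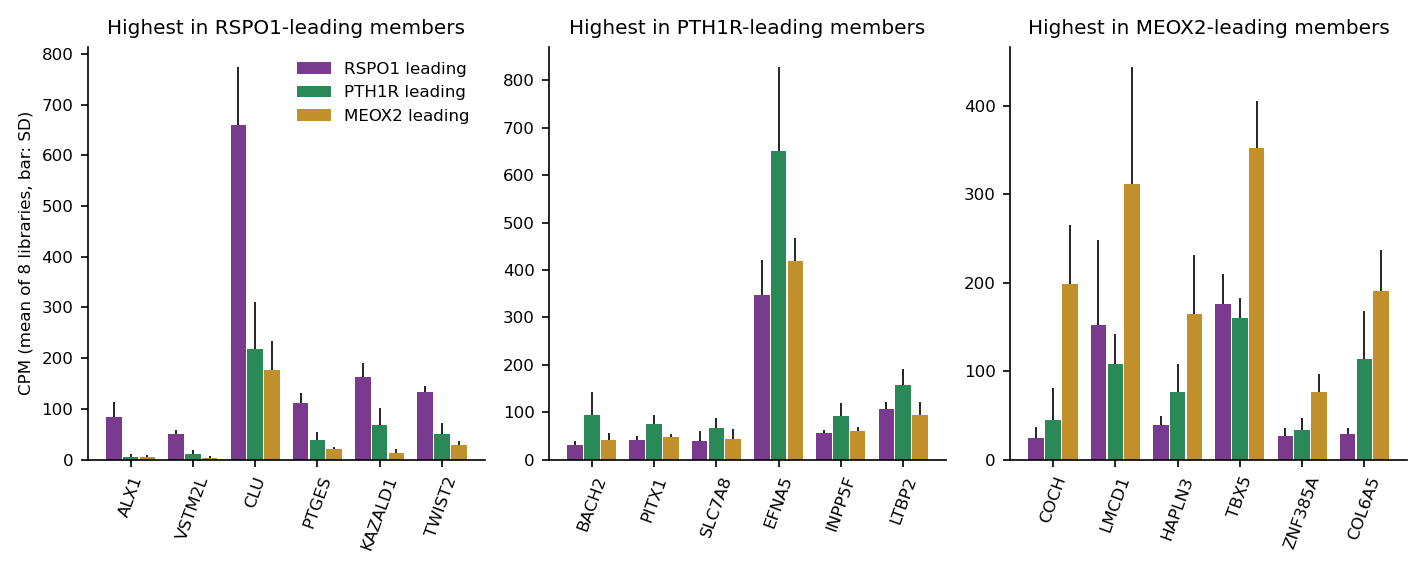
CPM of 6 genes for each kind of member, ranked by how far they were highest in members led by RSPO1, PTH1R or MEOX2 (bars: mean of 8 libraries, lines: SD). ALX1 and VSTM2L are near 0 outside the RSPO1-leading members, and COCH is highest in the MEOX2-leading ones at 198 CPM.

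Against the other gated cells, members held more of many genes, and this is given without a test, since the rule and the depth set both sides of the contrast. Of 9122 genes averaging at least 10 CPM over both sets, 1334 (14.6%) were at least 2-fold higher in the median library and higher in all 8 libraries, on a scale of log2(CPM + 10). Only 38 (0.417%) were as much lower. The median gene was itself 0.38 higher on the log2 scale, so ratios are best read against that value. After the genes of the rule, COL21A1, a fibril-associated collagen gene, was the highest at its identifier AMEX60DD020532. It averaged 106 CPM ± 39.8 in members and 4.12 ± 2.27 in the other gated cells (SD, n = 8 libraries). In the cells with cartilage collagens it averaged 37.8 CPM and in the cells outside the connective tissue classes 41.8 CPM. COL21A1 has further identifiers. In RSPO1-, PTH1R- and MEOX2-leading members AMEX60DD033487 averaged 31.3, 37.9 and 72.7 CPM, and AMEX60DD020532 averaged 113, 161 and 57.9 CPM. SLC6A2, the transporter that takes noradrenaline back into cells, came next. It stood at 149.6, 199.6, 120.2 and 116 CPM in members of the Intact and at 158, 180.3, 157 and 138 CPM in members of the Contra libraries, against 11.2 CPM ± 4.34 in the other gated cells (SD, n = 8 libraries). No member library was near the level of the other gated cells. SLC6A2 averaged 156 CPM over the cells outside the connective tissue classes as well, so it was not restricted to members. A second SLC6A2 identifier behaved alike, at 63.0 CPM in members against 7.03 CPM.

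The next genes came from signalling, adhesion and matrix synthesis. CRTAC1, a secreted cartilage acidic protein gene, averaged 276 CPM in members against 36.1 CPM in the other gated cells. SMOC2, a matricellular calcium-binding protein gene, averaged 137 against 13.9 CPM. The cadherin CDH13 stood at 471 against 78.6 CPM and the protocadherin PCDH9 at 108 against 8.26 CPM. HAS2, which makes hyaluronan, averaged 279 against 45.6 CPM, and CACNA1G, a T-type calcium channel gene, 267 against 46.9 CPM. These genes were not particular to members. In the cells with cartilage collagens, PCDH9, CACNA1G, SMOC2 and CDH13 averaged 107, 237, 116 and 325 CPM. CRTAC1 and HAS2 averaged 173 and 98.1 CPM there. The ranking also named RIPOR3, ARHGAP28, PAWR, AK5, SNTG1 and CYP2A13, with median log2 ratios between 2.39 and 2.69.

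The genes lower in members were fewer and less far apart. CRIP1, a small LIM-domain protein gene, stood at 1117 CPM ± 133 in members and 3538 ± 551 in the other gated cells (SD, n = 8 libraries). SPON2, a secreted matrix protein gene, averaged 284 against 817 CPM, ALDH1A2, which makes retinoic acid, 37.9 against 111 CPM, and HAPLN3 72.4 against 201 CPM. MFAP5, which the rule used on the connective tissue side, averaged 3937 against 10315 CPM. One KRT5 identifier (44.5 against 137 CPM), TPPP3, TMEM38A, TUBB2B and PHLDA2 made up the rest, with median log2 ratios between -1.41 and -1.29. KRT5 is an epidermal keratin that the rule limits, and the 18 keratin identifiers of the rule summed to 567 CPM in members and 1098 CPM in the other gated cells.

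**Figure D3:**
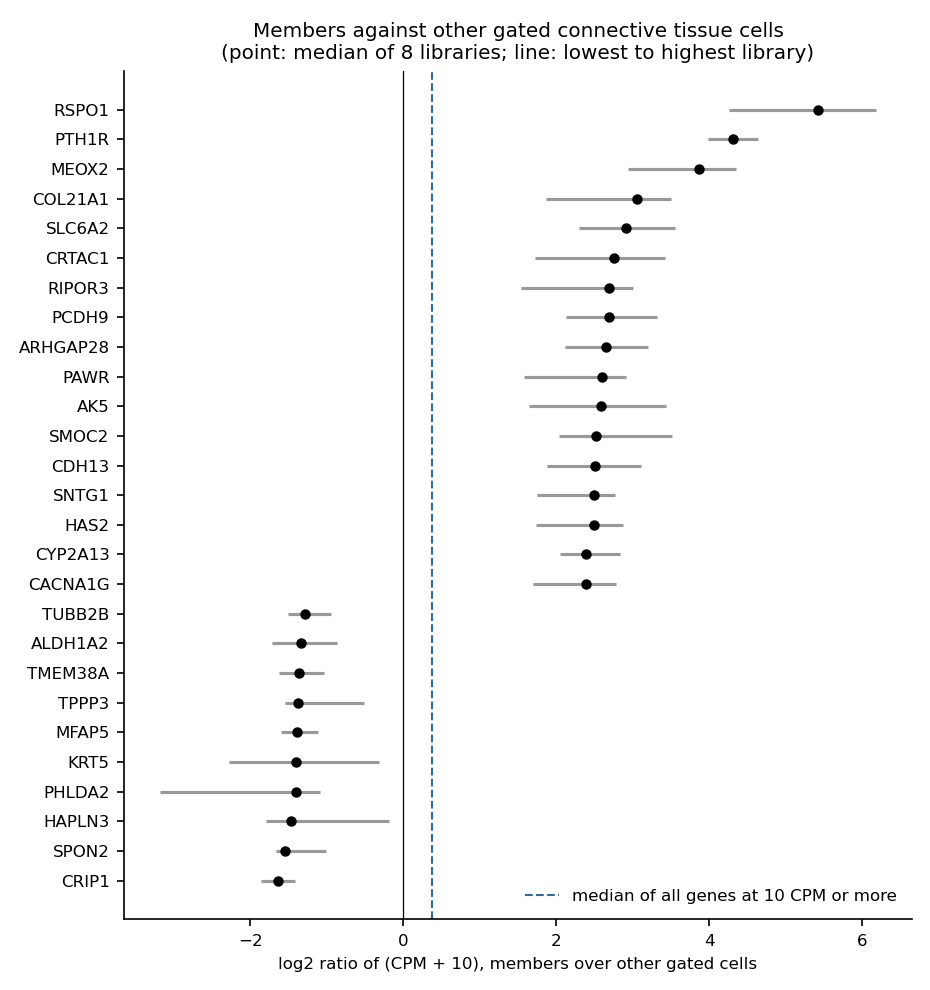
Ratio of members to other gated cells, as log2 of CPM + 10, for 17 of the 20 genes furthest above and the 10 furthest below (points: median of 8 libraries; lines: lowest to highest library). RSPO1, PTH1R and MEOX2 are set by the rule; COL21A1 (3.06) and SLC6A2 (2.92) follow, and CRIP1 (-1.63) is the lowest, while the median of all genes is 0.38.

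Genes of WNT signalling were spread over every step of the pathway in members. Of 81 identifiers listed, 46 reached the level of 10 CPM and 17 of those met the 2-fold limit above the other gated cells, RSPO1, which the rule set, among them, against 14.6% of all genes. Their median log2 ratio was 0.76 against 0.38 for all genes. Among the ligands, WNT11, known for non-canonical signalling, averaged 322 CPM ± 42.4 in members against 101 CPM, and WNT9A, a joint and limb mesenchyme ligand in mouse, 283 ± 59.3 against 67.1 CPM (SD, n = 8 libraries). WNT4 was also higher (29.0 against 10.1 CPM), whereas WNT5A differed little, at 37.6 against 28.7 CPM. The other R-spondins were low: RSPO2 averaged 20.2 CPM in members and 26.6 CPM in the other gated cells, RSPO3 16.7 and 12.02 CPM.

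Among the receptors, 5 of 12 met the 2-fold limit. ROR1, a tyrosine kinase receptor for WNT5A, averaged 324 CPM ± 23.5 in members against 69.4 CPM (SD, n = 8 libraries), and ROR2, RYK and LRP6 had median log2 ratios of 1.11, 1.08 and 1.03. LGR4, an R-spondin receptor, stood at 42.9 against 23.5 CPM, and RNF43, the ligase that R-spondins hold back, at 37.2 against 15.3 CPM, both short of the limit. RECK, the partner of ADGRA2, did not differ in this way, at 71.6 against 72.3 CPM. Inside the cell, TCF7L1 and LEF1, DNA-binding partners of beta-catenin, stood at 201 against 63.8 CPM and at 51.1 against 13.2 CPM. CTNNB1, which encodes beta-catenin itself, was slightly lower in members, at 184 against 220 CPM. AXIN2 and NKD1, feedback inhibitors that WNT signalling induces in many tissues, stood at 61.0 against 16.9 CPM and at 152 against 52.2 CPM. Among secreted inhibitors the picture was mixed: APCDD1 met the limit (101 against 46.7 CPM), DKK3 was as far below (20.04 against 55.8 CPM), and SFRP1 averaged 394 against 301 CPM.

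Genes of the cyclic AMP pathway, through which PTH1R signals, were more often higher than lower in members. Of 55 identifiers of the parathyroid hormone and cyclic AMP list, 25 reached 10 CPM and 10 of those met the limit, PTH1R, which the rule set, among them, against 14.6% of all genes. In all 8 libraries, 17 were higher and 2 lower, against 45.4% and 12.4% of all genes. The median log2 ratio was 0.91 against 0.38 for all genes. The phosphodiesterase gene PDE3A, whose product breaks down cyclic AMP, averaged 396 CPM ± 49.0 against 96.9 CPM, and PDE4D at one identifier 107 ± 23.3 against 18.2 CPM (SD, n = 8 libraries). The adenylyl cyclase gene ADCY9 stood at 179.7 against 54.2 CPM. SIK3, a kinase that parathyroid hormone inhibits in mouse cartilage and bone, stood at 139 against 31.8 CPM. HDAC5 and MEF2D, which lie downstream of it, stood at 141 against 54.5 CPM and at 139 against 66.5 CPM. GNAS, the stimulatory G protein gene, is split over several identifiers and its level is uncertain. The ligand PTHLH was low, at 12.7 CPM in members and 18.5 CPM in the other gated cells.

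By median log2 ratio, limb mesenchyme factors lay nearer to all genes than the WNT and cyclic AMP lists. The share that met the 2-fold limit was still larger than that of all genes. Of 68 identifiers, 38 reached 10 CPM and 14 of those met the limit, MEOX2, which the rule set, among them, against 14.6% of all genes. Their median log2 ratio was 0.52 against 0.38 for all genes. PRRX1 stood at 525, 428, 447 and 359.6 CPM in the Intact and at 392, 444, 336 and 375 CPM in the Contra libraries, against 113 CPM in the other gated cells. The libraries of the groups overlapped. LMX1B, which marks dorsal limb mesenchyme, averaged 302 against 86.7 CPM, SHOX, a gene of limb skeletal growth, 265 against 94.1 CPM, and ALX4, which marks anterior mesenchyme in mouse, 98.8 against 19.9 CPM. OSR2 and EBF2 were below their level in the other gated cells, at 137 against 237 CPM and at 103 against 149 CPM. For EBF2 this did not hold in every kind of member. It averaged 43.0 CPM ± 4.08 in RSPO1-leading, 210 ± 126 in PTH1R-leading and 211 ± 28.4 in MEOX2-leading members (SD, n = 8 libraries). Both TBX5, the forelimb factor, and PITX1, the hindlimb factor, were present, with TBX5 between 179.9 and 253 CPM and PITX1 between 37.8 and 57.5 CPM over the 8 libraries. TBX4, the other hindlimb T-box factor, averaged 6.17 and 6.12 CPM at its 2 identifiers.

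Growth factor genes that met the limit were 15 of 37 at the required level, from 72 identifiers, against 14.6% of all genes, and 1 was as much lower, against 0.417%. Their median log2 ratio was 0.99. FGF10, the mesenchymal ligand of limb outgrowth, averaged 305 CPM ± 59.5 in members against 69.5 CPM (SD, n = 8 libraries). The neurotrophins NTF3 and, at its higher identifier, BDNF stood at 296 against 68.7 CPM and at 59.3 against 8.79 CPM. TGFB2 averaged 502 against 223 CPM. The chemokine CXCL12 was the gene that was lower, at 137 against 309 CPM. Of 99 matrix identifiers, 45 reached 10 CPM and 13 met the limit, against 14.6% of all genes, while their median log2 ratio of 0.41 was close to the 0.38 of all genes. These 13 include VCAN, a large hyaluronan-binding proteoglycan gene, at 971 CPM ± 166 against 277 CPM, COL12A1 at 594 ± 38.6 against 161 CPM, and PTX3 at 3613 ± 745 against 738 CPM (SD, n = 8 libraries). SPARC, a collagen-binding glycoprotein gene, was lower in members, at 7725 against 12772 CPM, and so were COL6A1 and COL6A2, whereas COL6A3 was higher. Of 34 identifiers of other connective tissue markers, 20 reached 10 CPM and 4 met the limit, a share near the 14.6% of all genes. These 4 were an identifier each of PRRX1, TWIST2, COL5A2 and FBLN2. Other identifiers of PRRX1, TWIST2 and FBLN2 did not meet it. The median log2 ratio of this list was 0.34.

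Adrenergic receptor genes were low in members. ADRA1D, an alpha-1 receptor gene, stood at 17.1, 20.3, 21.7 and 21.2 CPM in Intact 1, 3, 4 and 5 and at 14.6, 16.5, 12.2 and 15.8 CPM in Contra 1, 2, 3 and 5. Every Contra library lay below every Intact library, which held for 4.06% of all genes tested. The log2 difference was -0.34 (SE 0.12) with an unadjusted p of 0.0127 and an adjusted p of 0.595 by edgeR's quasi-likelihood test, so it did not pass. Of 6 adrenergic identifiers tested, ADRA1D was the only 1 lower in Contra. The other 5 were higher, and the median log2 difference of the 6 was 0.11. ADRA1D averaged 2.74 CPM in the other gated cells. ADRA1A averaged 13.0 and 9.98 CPM at its identifiers.

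Markers of other cell types were read in members to see what else the sums held. The 7 macrophage symbols found (14 identifiers) summed to between 74.4 and 118 CPM in the Intact and between 158 and 404 CPM in the Contra libraries, against 4700 CPM in the cells outside the connective tissue classes. Muscle fibre markers summed to between 23.3 and 41.8 CPM in Intact and between 38.2 and 86.8 CPM in Contra. Erythroid markers, nearly all from 1 HBG1 globin identifier, summed to between 115 and 849 CPM in Intact and to 36.1, 245, 215 and 5573 CPM in Contra 1, 2, 3 and 5. The library Contra 5 held 39 of the 42 members with 5% or more of their UMIs from erythroid genes, and 10 members reached 1% of macrophage genes. Endothelial markers summed to between 47.4 and 139 CPM, pericyte and smooth muscle markers to between 279.8 and 361 CPM, and tendon markers to between 203 and 497 CPM. Perineurial markers, mostly ABCA9, summed to between 489 and 714 CPM, against 207 CPM in the other gated cells, and bone and periosteum markers, mostly POSTN, to between 2349 and 3559.9 CPM. Of the defining genes of other types, PAX7 averaged 0.317 CPM, SCX 0.407 CPM and SOX9 1.26 CPM. The macrophage sums were higher in every Contra than in every Intact library, and their part in the comparisons of the groups below was not tested.

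Whether members were a larger or smaller share of the gated cells in systemically activated limbs was asked over the libraries. Of gated cells, members were 82.4, 78.7, 74.3 and 80.2% in Intact 1, 3, 4 and 5 and 72.8, 79.6, 65.4 and 62.0% in Contra 1, 2, 3 and 5. The groups overlapped through Contra 2. The means were 78.9% ± 3.42 in Intact and 69.95% ± 7.87 in Contra, 8.97 percentage points lower in Contra (SD, n = 4 libraries each). This missed the threshold in a 2-sided exact permutation test (p = 0.0857, 0.229 when adjusted over 4 such tests; the smallest p this design allows is 0.0286). As the groups overlapped through Contra 2, leaving it out fixed the smallest possible exact p, 0.0286, at a difference of -12.2 points. Leaving out any other library gave an exact p between 0.0857 and 0.171. Drawing 3000 UMIs from each cell before applying the rule gave -8.30 points (exact p = 0.114).

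Of all cells with 500 genes, members made up 9.94, 29.8, 7.42 and 6.55% in Intact 1, 3, 4 and 5 and 27.8, 26.7, 30.0 and 13.4% in Contra 1, 2, 3 and 5. Intact 3 stood with the Contra libraries. The mean was 13.4% ± 10.998 in Intact and 24.5% ± 7.5 in Contra, a difference of 11.1 points (SD, n = 4 libraries each; exact permutation p = 0.114, adjusted p = 0.229). This denominator moves with every other class, so a gain of members and a loss of other cells cannot be told apart in it. Within library numbers 1 and 3 the difference was 9.03 points, and within the other numbers 13.1 points. The median depth of members was 12456 UMIs ± 4096 in Intact and 14217 ± 1311 in Contra (SD, n = 4 libraries each; exact permutation p = 0.429, adjusted p = 0.457). The groups overlapped in depth through Intact 3, at 17895 UMIs. Leaving it out therefore fixed the smallest possible exact p, 0.0286, at a difference of 3573.5 UMIs. Leaving out any other library gave an exact p between 0.429 and 0.857.

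**Figure D4:**
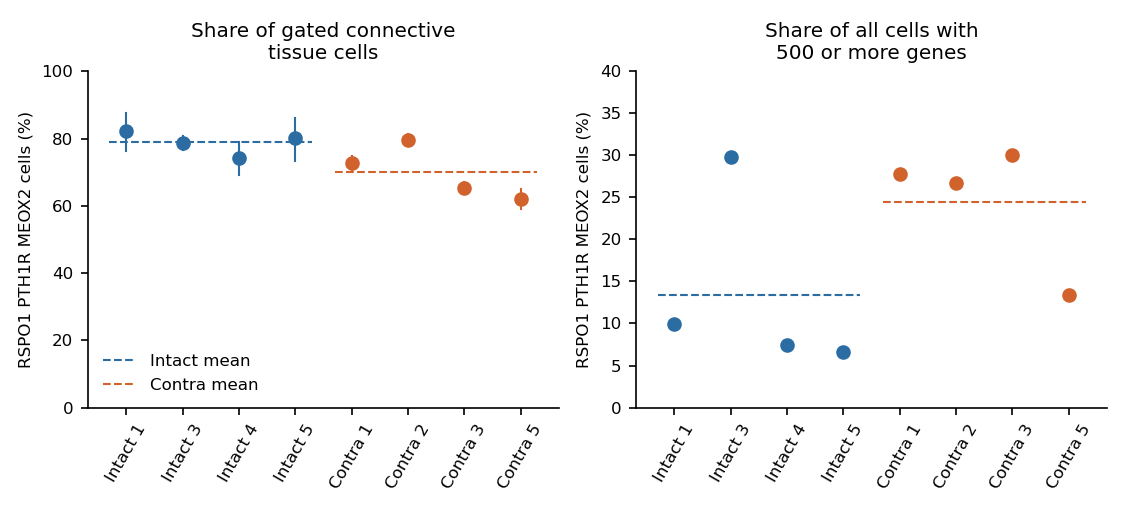
Members as a percentage of gated connective tissue cells (left, lines: 95% exact interval for counting error only) and of all cells with 500 or more genes (right), per library; dashed lines are group means. On the left Contra 2 (79.6%) lies among the Intact libraries, and on the right Intact 3 (29.8%) lies among the Contra libraries.

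Transcripts of G2/M genes, which serve the preparation and execution of cell division, were detected in most members. After drawing 3000 UMIs from each cell, 5958 of 7254 members (82.1%) held at least 3 UMIs of a list of G2/M genes. Members of fewer than 3000 UMIs were left out. The share was 86.5% in the other gated cells, 81.7% in cells with cartilage collagens and 81.0% in the cells outside the connective tissue classes. Muscle fibre cells, set by 10% or more of their UMIs from muscle fibre genes, passed in 12 of 24 cells (exact interval of the share 29.1 to 70.9%). A share up to that level was read as a rough background, on the assumption that such cells do not cycle, which was not tested. Without the abundant tubulin gene TUBB4B the shares were 48.7% in members, 44.3% in the other gated cells, 69.6% in the cells outside the connective tissue classes and 12.5% in muscle fibre cells. Undrawn, 97.1% of members passed. Between the groups the share was 83.7% ± 3.14 in Intact and 82.4% ± 1.25 in Contra, lower by 1.31 points (SD, n = 4 libraries each; exact permutation p = 0.457, adjusted p = 0.457). The sign turned with 5000 UMIs drawn (0.0791 points), so no direction is given.

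Across all genes, no difference between Contra and Intact members passed the test. UMIs were summed over the members of each library and 24986 genes were tested with edgeR's quasi-likelihood test. At an adjusted p of 0.05, 0 genes were called in either direction (0% of genes), with a smallest adjusted p of 0.440. At an unadjusted p of 0.05, 1871 genes passed (7.49%), of which 59.3% were higher in Contra. Scaling by library totals alone moved the median gene to -0.11 on the log2 scale and turned that split to 20.3% higher. DESeq2 called 49 genes, 45 of them higher in Contra. Without Contra 2, edgeR called 4 genes, all higher in Contra, among them the protease genes CTSS, which macrophages express, and CTSV. Every Contra library lay above every Intact library for 356 genes (1.42%) and below for 1015 genes (4.06%).

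None of the 10 genes with the smallest p passed the correction by edgeR, while 6 of them passed it by DESeq2 and for 1, APLNR, DESeq2 gave no adjusted p. APLNR, the apelin receptor gene, had 2 UMIs in all Intact members and 80 in all Contra members, a ratio of 13.3 after scaling for depth, with a counting interval of 3.56 to 111. This interval pools the UMIs of each group and does not cover the spread between libraries. In members APLNR reached 1.23 CPM at most in any library, while it averaged 14.9 CPM in the cells outside the connective tissue classes. PMM1, a phosphomannomutase gene, stood at 17.1, 20.7, 15.7 and 13.9 CPM in Intact and at 27.1, 30.9, 27.8 and 26.0 CPM in Contra (log2 difference 0.77, SE 0.14, adjusted p = 0.440 by edgeR, 0.0206 by DESeq2). H2AC20, a histone H2A gene with near-identical copies and so uncertain, averaged 26.6 CPM in Intact and 68.4 CPM in Contra (DESeq2 adjusted p = 0.00332). The ribosomal protein genes RPL24 and RPL18 averaged 32.3 and 85.4 CPM in Intact and 61.9 and 129 CPM in Contra (DESeq2 adjusted p = 0.00783 and 0.0206). In the other direction, NLGN4X, a neuroligin gene, stood at 33.1, 28.3, 24.3 and 30.2 CPM in Intact and at 17.3, 19.0, 15.3 and 12.2 CPM in Contra (log2 difference -0.71, SE 0.14, adjusted p = 0.440 by edgeR, 0.0206 by DESeq2). DNMT3A, a DNA methyltransferase gene, DNAJC3, a chaperone gene of the endoplasmic reticulum, KLHL18 and TRRAP had log2 differences of -0.55, -0.63, -0.56 and -0.45, and of these DNAJC3 passed by DESeq2 (adjusted p = 0.0435). For all 10 of these genes the groups did not overlap, but they were picked by their p, so this adds no support. Of all genes tested, 1.42% lay higher in every Contra than in every Intact library and 4.06% lower. In these sums the macrophage markers were 158 to 404 CPM in Contra and 74.4 to 118 CPM in Intact.

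For the WNT pathway, 63 identifiers, RSPO1 among them, were tested and 0 passed (adjusted p), with 40 higher and 23 lower in Contra and a median log2 difference of 0.04. Under library totals alone the split was 19 higher and 44 lower, so no direction is given. RSPO1 was used by the rule, and its difference between the groups is given without a test. Over all gated cells, without the limit of 3 UMIs, RSPO1 stood at 1979, 1637, 1819.7 and 1735 CPM in Intact 1, 3, 4 and 5 and at 1338, 1399.8, 1029.7 and 1215 CPM in Contra 1, 2, 3 and 5. Every Contra library lay below every Intact library there. Members held 184409 RSPO1 UMIs and the other gated cells 732, so this is no second observation. In cells with cartilage collagens RSPO1 averaged 965.6 CPM ± 331 in Intact and 961.6 ± 272 in Contra. In the cells with less than 2% of connective tissue genes it averaged 2844 ± 936 and 2242 ± 462 (SD, n = 4 libraries each). The groups overlapped in both sets. Among members, every Contra library lay below every Intact library for 4.06% of all genes. WNT9A had a log2 difference of -0.26 (SE 0.13), ADGRA2 of -0.05 (SE 0.10) and AXIN2, at its higher identifier, of 0.08 (SE 0.11). TCF7L2, a DNA-binding partner of beta-catenin, had one of -0.33 (SE 0.08) and lay lower in every Contra library.

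**Figure D5:**
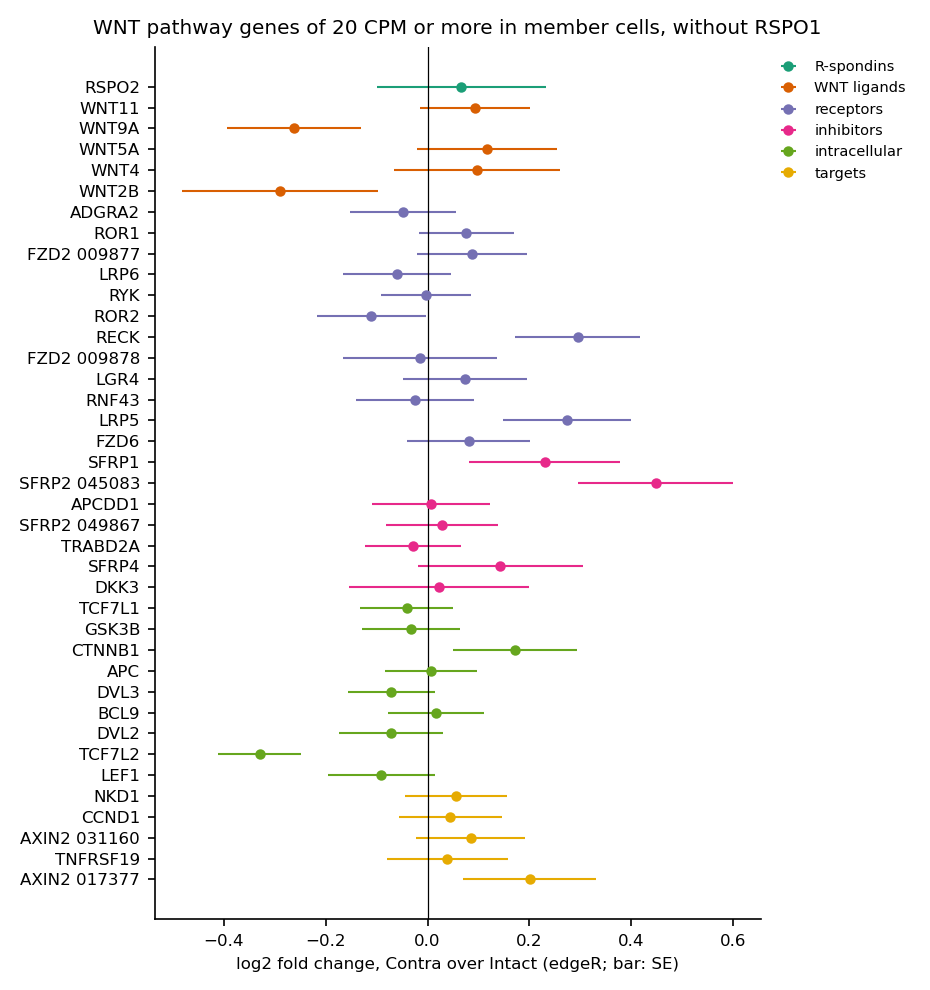
Difference between Contra and Intact members (log2 fold change by edgeR, bars: SE) for the 39 WNT pathway identifiers of at least 20 CPM other than RSPO1, coloured by role; a gene with several identifiers shows the last digits of each. Values run from -0.33 for TCF7L2 to 0.45 for SFRP2, 24 are above 0, and none passed the correction.

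Other lists gave 0 genes that passed. Of 63 G2/M identifiers tested, 50 were higher in Contra, with 13 at an unadjusted p under 0.05, against 4.44% of all genes higher at that p. With library totals alone it was 37 higher, 7 of them at that p, and 26 lower. CCNA2, the cyclin of S phase and G2, averaged between 5.34 and 8.95 CPM in the Intact and between 10.8 and 13.6 CPM in the Contra libraries (log2 difference 0.72, SE 0.17, adjusted p = 0.440 by edgeR). Of all genes tested, 1.42% lay higher in every Contra than in every Intact library. Of 42 S-phase identifiers, 18 were higher and 24 lower, with 1 higher and 5 lower at an unadjusted p under 0.05, among them MCM3 and MCM4 of the replicative helicase, against 3.05% of all genes that were lower. With library totals alone it was 13 higher and 29 lower, with 11 lower at that p. Limb mesenchyme factors gave 4 higher and 2 lower at that p of 57 tested, growth factor genes 4 and 1 of 59, and parathyroid hormone and cyclic AMP genes 1 and 0 of 44. PDGFRA stood at 198, 204, 164 and 195 CPM in Intact and at 201, 226, 212 and 225 CPM in Contra (log2 difference 0.32, SE 0.11, adjusted p = 0.595 by edgeR), and the groups overlapped. Macrophage genes gave 7 higher of 7 tested, 3 of them at that p, with sums of 74.4 to 118 CPM in Intact and 158 to 404 CPM in Contra.

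Whether the groups differed in another way in members than in the other gated cells was tested as an interaction within libraries. Of 16436 genes, 9 (0.0548%) had a log2 difference of Contra from Intact that was higher in members than in the other gated cells, and 1 (0.00608%) a lower one, at an adjusted p of 0.05 by edgeR. At an unadjusted p of 0.05, 584 genes (3.55%) passed, 220 of them (1.34%) with a higher and 364 (2.21%) with a lower difference in members. The sign does not say in which cells the change was larger. The muscle actin gene ACTC1 stood at 9.08, 11.7, 7.03 and 6.54 CPM in Intact members and at 21.1, 14.6, 30.9 and 19.7 CPM in Contra members, whereas in the other gated cells it stood at 176, 121, 24.9 and 34.5 CPM and at 70.7, 30.6, 73.6 and 40.1 CPM (log2 difference of changes 1.97, SE 0.26, adjusted p = 0.000153 by edgeR). The complement gene C1QB, a macrophage product, stood at 69.9 CPM in the other gated cells of Intact 3 and at 3.41 CPM at most in those of the other libraries (log2 difference of changes 5.20, SE 0.55, adjusted p = 3.73e-06 by edgeR). Without Intact 3 there were 23 calls, and without Contra 2 there were 18. Without Intact 3, 0 of the 9 called genes that could still be tested remained called, and their adjusted p lay between 0.0577 and 0.998. The other gated cells of Intact 1 and 5 rest on 34 and 32 cells.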

How the data were processed

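Cells were grouped by the library name in their barcode. The deposited matrix holds raw UMI counts (whole numbers, not normalized, as its values show) for 60956 genes. Kallisto 0.48.0 and Seurat 4.2.0 are named in the submitters' processing notes, with no role. The genome build and the use of strand in counting are not given in the sources used here, so reads of overlapping or near-identical genes cannot be told apart. The last symbol before an AMEX60DD identifier was used as its symbol. No coordinates or sequences were used. The members and all gene lists were chosen with earlier results of these data known.

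Counts were summed per library over members and over other gated cells. Contra was compared with Intact by edgeR 4.0.16 (quasi-likelihood test, TMM, filterByExpr, Benjamini-Hochberg over all genes tested), in R 4.3.3, with a term for each library in the interaction. DESeq2 1.42.0 was an alternative. The edgeR steps were tested on simulated data. Shares and medians were compared by 2-sided exact permutation tests over 70 assignments. Intervals are exact Clopper-Pearson intervals and cover counting error only. Scrublet ran in scanpy 1.11.5. Members and other gated cells were compared by log2(CPM + 10) per library, with no test. Genes named there are the 20 furthest above and 10 furthest below among symbols of at least 50 CPM in the higher set and 1 direction in all libraries. Some of them are not reported here. Between the groups they are the 5 with the smallest p in each direction. Genes of lists are named by level or ratio. The kinds led by RSPO1, PTH1R or MEOX2 were cut after the data were seen. Replicate numbers were checked for pairing over 9737 genes. The deviations of Intact and Contra libraries of the same number correlated at 0.041 for number 1, 0.541 for number 3 and 0.243 for number 5. For different numbers the correlations lay between -0.403 (Intact 3 with Contra 2) and 0.204 (Intact 3 with Contra 1). The labels do not say whether a number pairs libraries, these values leave it open, and no pairing was assumed. Alternatives covered the limits of the rule, depth, doublets, scaling, filters, tests and each library left out.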

Additional observations from a re-analysis of the deposited data

Results flagged for a closer look

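Members made up 29.8% of all cells with 500 genes in Intact 3, against 9.94% in the next Intact library, a gap that stands apart from the other 3. The level of APLNR was 0.0890 CPM in members of Intact 3 and 0 in the other Intact libraries. That level rests on 2 UMIs, and Intact 3 gave 22469577 of the 28692501 UMIs of Intact members. With 0 in all other Intact libraries, any count there would have been flagged, so the flag says nothing about Intact 3. Of 36 groups of 4 libraries examined for a library that stands apart, only the share of members and APLNR were flagged, and chance flags about 1 in 20.

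For 10 of 16436 genes (0.0548% higher, 0.00608% lower), the change between Contra and Intact differed between members and other gated cells in edgeR's interaction. As log2 differences of changes, these were C1QB 5.20, ACY3 3.76, ACTC1 1.97, CKM 1.67, UCP2 1.17 and C1QTNF3 -2.60. The identifiers with no symbol gave 2.63 for AMEX60DD005903, 1.43 for AMEX60DD026477, 3.51 for AMEX60DD032518 and 4.08 for AMEX60DD052071. Without Intact 3, 0 of the 9 called genes that could still be tested remained called. ACTC1 and CKM are muscle genes and C1QB is a macrophage gene. C1QB stood at 69.9 CPM in the other gated cells of Intact 3 and at 3.41 CPM at most in those of the other libraries. UCP2 stood at 160, 98.9, 307 and 231 CPM in Intact members and at 118, 143, 143 and 176 CPM in Contra members. In the other gated cells it stood at 70.9, 71.3, 177 and 395 CPM in Intact and at 34.8, 48.3, 38.4 and 69.04 CPM in Contra, and the highest of these, Intact 5, rests on 32 cells. Its log2 difference was -0.29 (SE 0.26) in members and -1.61 (SE 0.42) in the other gated cells.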

How the results depend on the processing

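Left out in turn, the libraries moved the difference in the share of gated cells between -12.2 and -6.31 points, that in the share of all cells between 8.77 and 16.5 points, that in median depth between 367 and 3573.5 UMIs and that in the G2/M share between -2.53 and -0.336 points. Calls between the groups lay between 0 and 4 (without Contra 2: CPA3, CTSS, CTSV and AMEX60DD013798, named after their values were seen) and interaction calls between 11 and 23, the highest without Intact 3 and 18 without Contra 2, against 10 with all libraries. C1QB turned to -4.94 without Intact 3 (adjusted p = 0.846) and reached 5.50 at most, without Contra 5. The G2/M share differed by 0.0791 points with 5000 UMIs drawn, by 1.40 with none drawn, by 2.12 within library numbers 1 and 3 and by -4.74 within the other numbers. DESeq2 called 49 genes between the groups, edgeR without a filter on low counts 102, with the numbers 1 and 3 as a term 1 and with the replicate number as a block 550. The labels do not say whether the numbers pair the libraries, so the block was kept as an alternative only. For the interaction, library totals without TMM gave 4 calls and no filter 56. Members of 5 or more UMIs had 828 genes 2-fold above the other gated cells, against 1334 in the report, and libraries with 50 or more other gated cells, an alternative chosen after seeing the data, gave 1502. In these cases the cause was not tested. The shares kept their side of the threshold under all other alternatives run. Intact 1 and Intact 5, with 1871454 and 1223684 UMIs in members, limit what low genes can show.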

Other observations

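Genes of tyrosine breakdown and of cofactor recycling stood mostly at a higher level in members than in the other gated cells, a list chosen after the values were seen and given with no test. All 7 identifiers of QDPR, PCBD1, TAT, HPD, HGD, GSTZ1 and FAH reached 10 CPM, and 4 were at least 2-fold higher in the median and higher in all 8 libraries, against 14.6% of all genes. HPD, which acts on the product of tyrosine transamination, averaged 212 CPM ± 17.3 in members against 53.5 ± 36.4 (SD, n = 8 libraries). TAT, the tyrosine transaminase gene, averaged 201 against 53.3 CPM, QDPR, which restores tetrahydrobiopterin, 340.2 against 134 CPM, and HGD, the next step after HPD, 255 against 124 CPM. FAH, the last step, averaged 555 against 459 CPM.

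Summed over all members, genes that make noradrenaline were near 0, while its transporter gene SLC6A2 averaged 152 CPM at its higher identifier. Members with an SLC6A2 UMI were not read apart. DBH, which makes noradrenaline from dopamine, averaged 0.258 and 0.551 CPM at its 2 identifiers, TH 0.555 and 0.415 CPM, and DDC 2.95 CPM. MAOA, which breaks monoamines down, averaged 31.8 CPM in members against 45.7 CPM in the other gated cells.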
